A study of Homo sapiens with 12 samples.

Results

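The 9 genes of 1 signalling module, the Src family kinases and the enzymes around them, were followed through the transcriptional response of HL-60/S4 cells to TNF-α. They were 5 Src family kinases (FGR, LYN, FYN, SRC and YES1), the inhibitory kinase CSK, the inhibitory phosphatase PTPN6 (also called SHP-1), and the kinases SYK and BTK. The choice was by gene symbol, with earlier results of these data known. All 9 of the 9 symbols were found among the 58288 genes of the count table, and all 9 passed the filter on low counts in promyelocytes, in granulocytes and in the fit of all 12 libraries.

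HL-60/S4 is a line derived from an acute promyelocytic leukemia, and each of its 4 groups here held 3 libraries of ribosome-depleted RNA, each from its own flask. Undifferentiated promyelocytes received water (vehicle) or TNF-α at 16 ng/mL for 2 h. Granulocytes, differentiated with all-trans retinoic acid (ATRA) at 1 µM for 4 days and kept in ATRA, received the same treatments. All cells came from 1 seed lot at 8 passages and were held in calcium-supplemented medium, so the tests measure the spread between flasks of 1 line. The cell types were run as separate experiments, and the study suspended promyelocytes at a higher cell density than granulocytes. Any difference between them in level or response is confounded with experiment and density and cannot be told apart from these.

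Src family kinases sit on the inner face of the plasma membrane and start signalling from integrins, Fc receptors and other immune receptors by phosphorylating tyrosines in their cytoplasmic tails. Phosphorylated activating motifs (ITAMs) recruit SYK, which with BTK passes the signal to phospholipase C and calcium, while phosphorylated inhibitory motifs (ITIMs) recruit PTPN6, which removes phosphates again. CSK holds the Src family kinases inactive by phosphorylating a tyrosine in their C-terminal tail. In neutrophils Src family kinases such as FGR and LYN are known for adhesion-dependent degranulation and the oxidative burst.

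The libraries held 22829189 to 31895061 counted read pairs, with a median of 28233190, and at this depth 3 counts stood at 0.0946 to 0.136 CPM (read counts relative to the TMM-scaled library total). The 5 azurophil granule markers of promyelocytes summed to between 7321 and 8147 CPM in vehicle promyelocytes and between 2134 and 2346 CPM in vehicle granulocytes, where ELANE was at or under 3 counts in every library. The 8 granulocytic markers summed to between 265 and 281 CPM and to between 4162 and 4311 CPM. With TNF-α, the azurophil sum was 6065 to 6966 CPM in promyelocytes and 2145 to 2352 CPM in granulocytes, and the granulocytic sum was 355 to 376 CPM in promyelocytes and 4254 to 4371 CPM in granulocytes. The monocyte markers CD163, MRC1 and MSR1 were at or under 3 counts in every group. The other 2 genes of that list, CD14 and CSF1R, exceeded 3 counts in at least 1 library of each group. The 5 monocyte and macrophage markers summed to between 3.86 and 4.73 CPM in vehicle promyelocytes and between 49.1 and 51.3 CPM in vehicle granulocytes. With TNF-α the sum was 2.90 to 3.88 CPM in promyelocytes and 30.1 to 33.8 CPM in granulocytes. B cell, T cell and erythroid or platelet lists stayed at 3.86, 4.06 and 2.14 CPM or lower. As a check of the treatment, TNF itself stood at 20.4 ± 0.933 CPM with vehicle and 75.4 ± 1.74 CPM with TNF-α in promyelocytes, and at 14.4 ± 0.317 and 82.6 ± 11.7 CPM in granulocytes (mean ± SD, n = 3).

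The genes lie on 9 chromosomes (GRCh38 coordinates of GENCODE 27, whole gene): FGR at chr1:27612064-27635277 on the minus strand, LYN at chr8:55879813-56014168 on the plus strand, FYN at chr6:111660332-111873452 on the minus strand, SRC at chr20:37344685-37406050 on the plus strand, and YES1 at chr18:721588-812546 on the minus strand. The regulators were CSK at chr15:74782057-74803198 on the plus strand, PTPN6 at chr12:6946468-6961316 on the plus strand, SYK at chr9:90801787-90898549 on the plus strand, and BTK at chrX:101349447-101390796 on the minus strand. No exon base of any of the 9 was shared with another gene of the same strand.

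Promoter sequences were taken from RefSeq (GRCh38.p14), as windows from 250 bases before to 50 bases after an annotated start site. For 7 of the 9 genes, 15 such windows were read. No window was read for SRC or LYN, so their promoters were not searched, and this does not mean that they lack annotated start sites. Windows are shown for genes that rose with TNF-α in granulocytes (FGR and YES1) and for genes that fell (FYN and PTPN6), each read 5′ to 3′ on the gene's own strand. Capitals mark matches, on either strand, to the NF-κB consensus, the factor through which TNF-α is best known to act, or to the letters GAGGAA or its complement, which hold the core bound by ETS factors such as the myeloid PU.1. The motifs and windows were chosen with the responses known.

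FGR, first start site, chr1:27635136-27635435, minus strand: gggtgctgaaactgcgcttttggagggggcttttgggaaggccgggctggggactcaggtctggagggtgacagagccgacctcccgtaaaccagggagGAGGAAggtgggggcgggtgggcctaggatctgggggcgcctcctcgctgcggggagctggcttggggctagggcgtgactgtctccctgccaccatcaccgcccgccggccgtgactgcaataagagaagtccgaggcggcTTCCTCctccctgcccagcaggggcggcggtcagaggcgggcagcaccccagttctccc

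YES1, chr18:812193-812492, minus strand: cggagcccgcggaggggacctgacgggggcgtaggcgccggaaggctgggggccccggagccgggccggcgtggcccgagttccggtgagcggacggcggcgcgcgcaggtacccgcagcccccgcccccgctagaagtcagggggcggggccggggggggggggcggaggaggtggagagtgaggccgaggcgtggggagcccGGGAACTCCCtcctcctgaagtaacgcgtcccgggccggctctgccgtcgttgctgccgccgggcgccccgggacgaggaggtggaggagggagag

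FYN, second start site, chr6:111873022-111873321, minus strand: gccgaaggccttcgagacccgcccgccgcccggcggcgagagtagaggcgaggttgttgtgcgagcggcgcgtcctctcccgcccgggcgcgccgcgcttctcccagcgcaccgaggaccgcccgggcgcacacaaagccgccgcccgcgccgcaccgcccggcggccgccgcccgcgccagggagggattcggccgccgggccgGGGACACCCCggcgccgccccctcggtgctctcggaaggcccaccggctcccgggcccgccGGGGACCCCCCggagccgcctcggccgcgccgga

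PTPN6, first start site, chr12:6946327-6946626, plus strand: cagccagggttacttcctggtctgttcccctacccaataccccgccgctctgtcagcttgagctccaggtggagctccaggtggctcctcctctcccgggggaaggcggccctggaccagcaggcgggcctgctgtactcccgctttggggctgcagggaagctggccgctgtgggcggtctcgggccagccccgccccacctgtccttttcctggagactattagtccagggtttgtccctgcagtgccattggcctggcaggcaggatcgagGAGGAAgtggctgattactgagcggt

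PTPN6, second start site, chr12:6951106-6951405, plus strand: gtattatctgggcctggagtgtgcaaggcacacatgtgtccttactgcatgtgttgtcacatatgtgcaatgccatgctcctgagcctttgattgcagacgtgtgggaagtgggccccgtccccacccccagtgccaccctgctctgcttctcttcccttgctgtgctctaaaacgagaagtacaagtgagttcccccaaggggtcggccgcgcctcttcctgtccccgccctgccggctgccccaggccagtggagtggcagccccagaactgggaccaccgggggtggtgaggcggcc

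The FGR window held GAGGAA at -151 and -9 bases from the start site and no NF-κB match. The YES1 window held 1 NF-κB match, at -46. The FYN window held 3 NF-κB matches, at -45, 16 and 17, of which the last pair overlap, and the other 3 FYN windows held none. The first PTPN6 window held GAGGAA at 24, and the second held no match. Among the windows not shown, the first of BTK, which was not called in either cell type, held 1 NF-κB match, at -187. It also held GAGGAA at -169 and -27, and the second BTK window held GAGGAA at 9. GAGGAA lay at -115 in the CSK window, at -82 and -32 in the second SYK window and at -47 in the third. The second FGR window held no match. Among all 35116 promoter windows of the same length, 11.27% held an NF-κB match, 27.85% held GAGGAA and 11.53% held TATAAA, which none of the 15 windows held. FGR, FYN, SYK, BTK and PTPN6 each have more than 1 annotated start site, and counts summed over a gene do not say which was used.

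In promyelocytes, TNF-α raised 1 of the 9 genes and lowered 1. FGR rose 3.16-fold and PTPN6 fell 1.15-fold, while the other 7 did not pass the threshold (edgeR's quasi-likelihood test, Benjamini-Hochberg adjusted p under 0.05 over all 16250 genes tested). The PTPN6 call was not kept in every fit, as given below. Of all genes tested, 14.8% were called, 8.15% as increased and 6.65% as decreased. The median log2 fold change was -0.06 over the 9 genes and -0.01 over all genes. FGR was the only one of the 9 past the threshold with a log2 change of at least 1 in size, which 2.47% of all genes reached. The azurophil sum was lower and the granulocytic sum higher in every TNF-α library than in every vehicle library of promyelocytes, by the ranges given above, and their part in these changes was not tested.

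In granulocytes, TNF-α raised 4 of the 9 genes and lowered 3. SRC rose 3.18-fold, FGR 1.60-fold, YES1 1.37-fold and CSK 1.10-fold. The CSK rise was not kept once library trends with exon GC and length were removed (log2 fold change -0.0067, edgeR adjusted p = 0.907). PTPN6 fell 1.61-fold, SYK 1.43-fold and FYN 1.39-fold, and LYN and BTK did not pass the threshold. Of the 16944 genes tested, 49.2% were called, 24.4% as increased and 24.8% as decreased. The median log2 fold change was 0.03 over the 9 genes and 0.00 over all genes, and SRC alone among the 9 passed with a log2 change of at least 1 in size, against 10.3% of all genes. In bulk RNA, fewer cells of a type and less RNA per cell cannot be told apart in any of these changes.

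**Figure D1:**
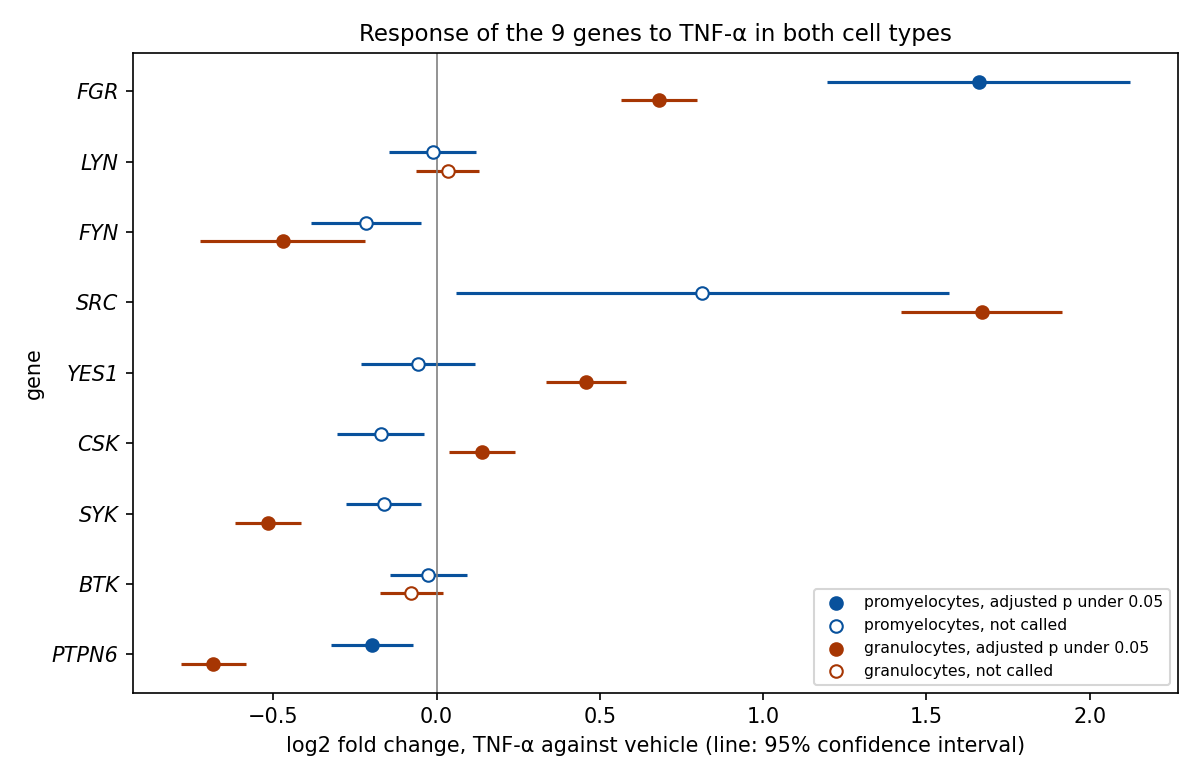
Log2 fold change of the 9 genes, TNF-α against vehicle, in promyelocytes (blue) and granulocytes (brown), with 95% confidence intervals (3 libraries against 3) and filled points where the adjusted p was under 0.05. FGR lies to the right of 0 and PTPN6 to the left of 0 in both cell types, SRC lies farthest to the right in granulocytes, and both points of LYN and of BTK are open.

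FGR encodes a Src family kinase largely restricted to myeloid cells. Its level was 0.948, 0.846 and 1.00 CPM in the 3 vehicle promyelocyte libraries and 3.01, 2.75 and 2.96 CPM with TNF-α, from 23 to 29 read pairs and from 77 to 94 read pairs. In granulocytes it was 48.5, 49.8 and 50.1 CPM with vehicle and 75.7, 77.3 and 87.6 CPM with TNF-α. The groups were apart in both cell types, with every TNF-α library above every vehicle library. The log2 fold change in promyelocytes was 1.66 ± 0.22 (SE, edgeR adjusted p = 1.56e-05), and that in granulocytes was 0.68 ± 0.06 (adjusted p = 1.33e-12). In promyelocytes, 98.97% of the tested genes had a lower log2 fold change than FGR, and in granulocytes 89.65%. The response was smaller in granulocytes by a log2 difference of -0.94 ± 0.17 (edgeR interaction, adjusted p = 0.000186), although the gain in level was larger there.

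LYN encodes a kinase that phosphorylates both activating and inhibitory receptors. It stood at 77.0, 75.2 and 73.8 CPM in vehicle promyelocytes and 77.5, 67.1 and 75.9 CPM with TNF-α, and at 189, 195 and 199 CPM in vehicle granulocytes against 208, 197 and 199 CPM with TNF-α. Vehicle and TNF-α libraries overlapped in both cell types. The 95% confidence interval of the log2 fold change ran from -0.15 to 0.12 in promyelocytes and from -0.06 to 0.13 in granulocytes (edgeR adjusted p = 0.930 and 0.590).

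FYN encodes a kinase best known from T cells and the nervous system. Its level was 32.3, 29.5 and 28.8 CPM in vehicle promyelocytes and 25.6, 23.0 and 28.1 CPM with TNF-α, and 7.74, 8.05 and 6.98 CPM in vehicle granulocytes against 6.06, 5.70 and 4.79 CPM with TNF-α. Every TNF-α library lay below every vehicle library in both cell types. The fall passed the threshold in granulocytes (log2 fold change -0.47 ± 0.12 SE, edgeR adjusted p = 0.00180). In promyelocytes the log2 fold change of -0.22 ± 0.08 did not (adjusted p = 0.0799), whereas a fit of all 12 libraries together gave -0.24 with an adjusted p of 0.0490, and the fit without the third TNF-α library gave -0.29 (adjusted p = 0.0287). Without the second TNF-α library it was -0.14 and did not pass. The difference between the responses, -0.22 ± 0.14, did not pass (adjusted p = 0.301).

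SRC, the prototype of the family, was the lowest of the 9 per length in every group but granulocytes with TNF-α. In granulocytes it stood at 3.35, 3.77 and 3.56 CPM with vehicle and at 12.6, 10.6 and 11.3 CPM with TNF-α, from 87 to 114 and from 250 to 295 read pairs. The groups did not overlap, and the log2 fold change was 1.67 ± 0.12 (SE, edgeR adjusted p = 2.33e-14), above that of 97.2% of the tested genes. In promyelocytes it was covered by 11, 17 and 29 read pairs with vehicle (0.359, 0.625 and 1.00 CPM) and 24, 39 and 36 with TNF-α (0.903, 1.39 and 1.13 CPM), and the groups overlapped. The log2 fold change there was 0.81 ± 0.36 (adjusted p = 0.149), and without the third vehicle library it was 1.26 and passed (adjusted p = 0.0403), while without the first it was 0.50 and did not pass. The log2 difference between the responses was 0.89 with a 95% confidence interval from 0.20 to 1.58 (edgeR interaction, adjusted p = 0.0543). It was 1.20 without the first vehicle promyelocyte library (adjusted p = 0.00735) and 1.05 without the second TNF-α promyelocyte library (adjusted p = 0.0343), and 0.453 without the third vehicle promyelocyte library, where it did not pass.

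YES1 encodes a broadly expressed member of the family. It stood at 25.5, 23.9 and 22.3 CPM in vehicle promyelocytes and 22.3, 24.8 and 20.8 CPM with TNF-α, where the groups overlapped, with a log2 fold change of -0.06 ± 0.08 (SE, edgeR adjusted p = 0.709). Granulocyte libraries rose from 32.3, 33.5 and 30.9 CPM to 44.2, 45.4 and 44.4 CPM, with no overlap and a log2 fold change of 0.46 ± 0.06 (adjusted p = 4.85e-08). The responses differed by 0.55 ± 0.10 on the log2 scale (edgeR interaction, adjusted p = 0.000168).

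CSK is the kinase that keeps the family inactive. Its level was 147, 136 and 139 CPM in vehicle promyelocytes and 120, 114 and 134 CPM with TNF-α, and 173, 175 and 184 CPM in vehicle granulocytes against 210, 189 and 193 CPM with TNF-α. The TNF-α libraries lay below all vehicle libraries in promyelocytes and above them in granulocytes. The log2 fold change was -0.17 ± 0.06 (SE, edgeR adjusted p = 0.0808) in promyelocytes and 0.14 ± 0.05 (adjusted p = 0.0202) in granulocytes, and the responses differed by 0.35 ± 0.08 (edgeR interaction, adjusted p = 0.00306). CSK has the most GC-rich exons of the 9, at 63.37%, and once library trends with exon GC and length were removed its change in granulocytes was -0.0067 (adjusted p = 0.907) and the difference between responses 0.11 (adjusted p = 0.303). In promyelocytes the change passed without the third TNF-α library (adjusted p = 0.0174) and in the fit of all 12 libraries (adjusted p = 0.0253), and without the second TNF-α library it was -0.12 and did not pass. The granulocyte call was also lost without the first or second vehicle library or the first TNF-α library (adjusted p = 0.0792, 0.0718 and 0.133).

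PTPN6 (SHP-1), the phosphatase recruited by inhibitory receptors, had the highest mean of the 9 per length in all 4 groups. In granulocytes it stood at 547, 531 and 569 CPM with vehicle and at 361, 342 and 334 CPM with TNF-α. The groups were far apart, and the fall had a log2 fold change of -0.68 ± 0.05 (SE, edgeR adjusted p = 1.94e-14), below all but 9.17% of the tested genes. In promyelocytes it stood at 212, 197 and 187 CPM with vehicle and at 166, 165 and 180 CPM with TNF-α, with no overlap. The fall there was small, with a log2 fold change of -0.20 ± 0.06 (adjusted p = 0.0307), and the call was lost without the first or second vehicle library or the first or second TNF-α library (adjusted p = 0.136, 0.104, 0.0805 and 0.134) and after the removal of GC and length trends (-0.12, adjusted p = 0.113). The log2 responses differed by -0.45 ± 0.08 (edgeR interaction, adjusted p = 0.000119). In granulocytes the summed monocyte and macrophage markers also fell with TNF-α, from between 49.1 and 51.3 CPM to between 30.1 and 33.8 CPM, and their part in the changes of the 9 genes was not tested.

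SYK, the kinase that docks on phosphorylated ITAMs, fell in granulocytes from 210, 211 and 222 CPM to 160, 145 and 148 CPM. The groups did not overlap, and the log2 fold change was -0.52 ± 0.05 (SE, edgeR adjusted p = 3.36e-11). In promyelocytes the libraries went from 199, 189 and 190 CPM to 173, 165 and 171 CPM, again without overlap, with a log2 fold change of -0.16 ± 0.05 that did not pass (adjusted p = 0.0520). It passed there in the fit of all 12 libraries (-0.19, adjusted p = 0.0126) and with DESeq2 (adjusted p = 0.0245). The responses differed by -0.32 ± 0.07 (edgeR interaction, adjusted p = 0.00201).

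BTK, the Tec family kinase that binds phosphoinositides at the membrane and is known for its role in B cell development, stood at 120, 113 and 120 CPM in vehicle promyelocytes and 114, 114 and 113 CPM with TNF-α. In granulocytes it went from 193, 189 and 190 CPM to 186, 182 and 178 CPM. The granulocyte groups did not overlap, but neither change passed the threshold, and the 95% confidence interval of the log2 fold change ran from -0.14 to 0.09 in promyelocytes and from -0.17 to 0.02 in granulocytes (edgeR adjusted p = 0.814 and 0.179).

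**Figure D2:**
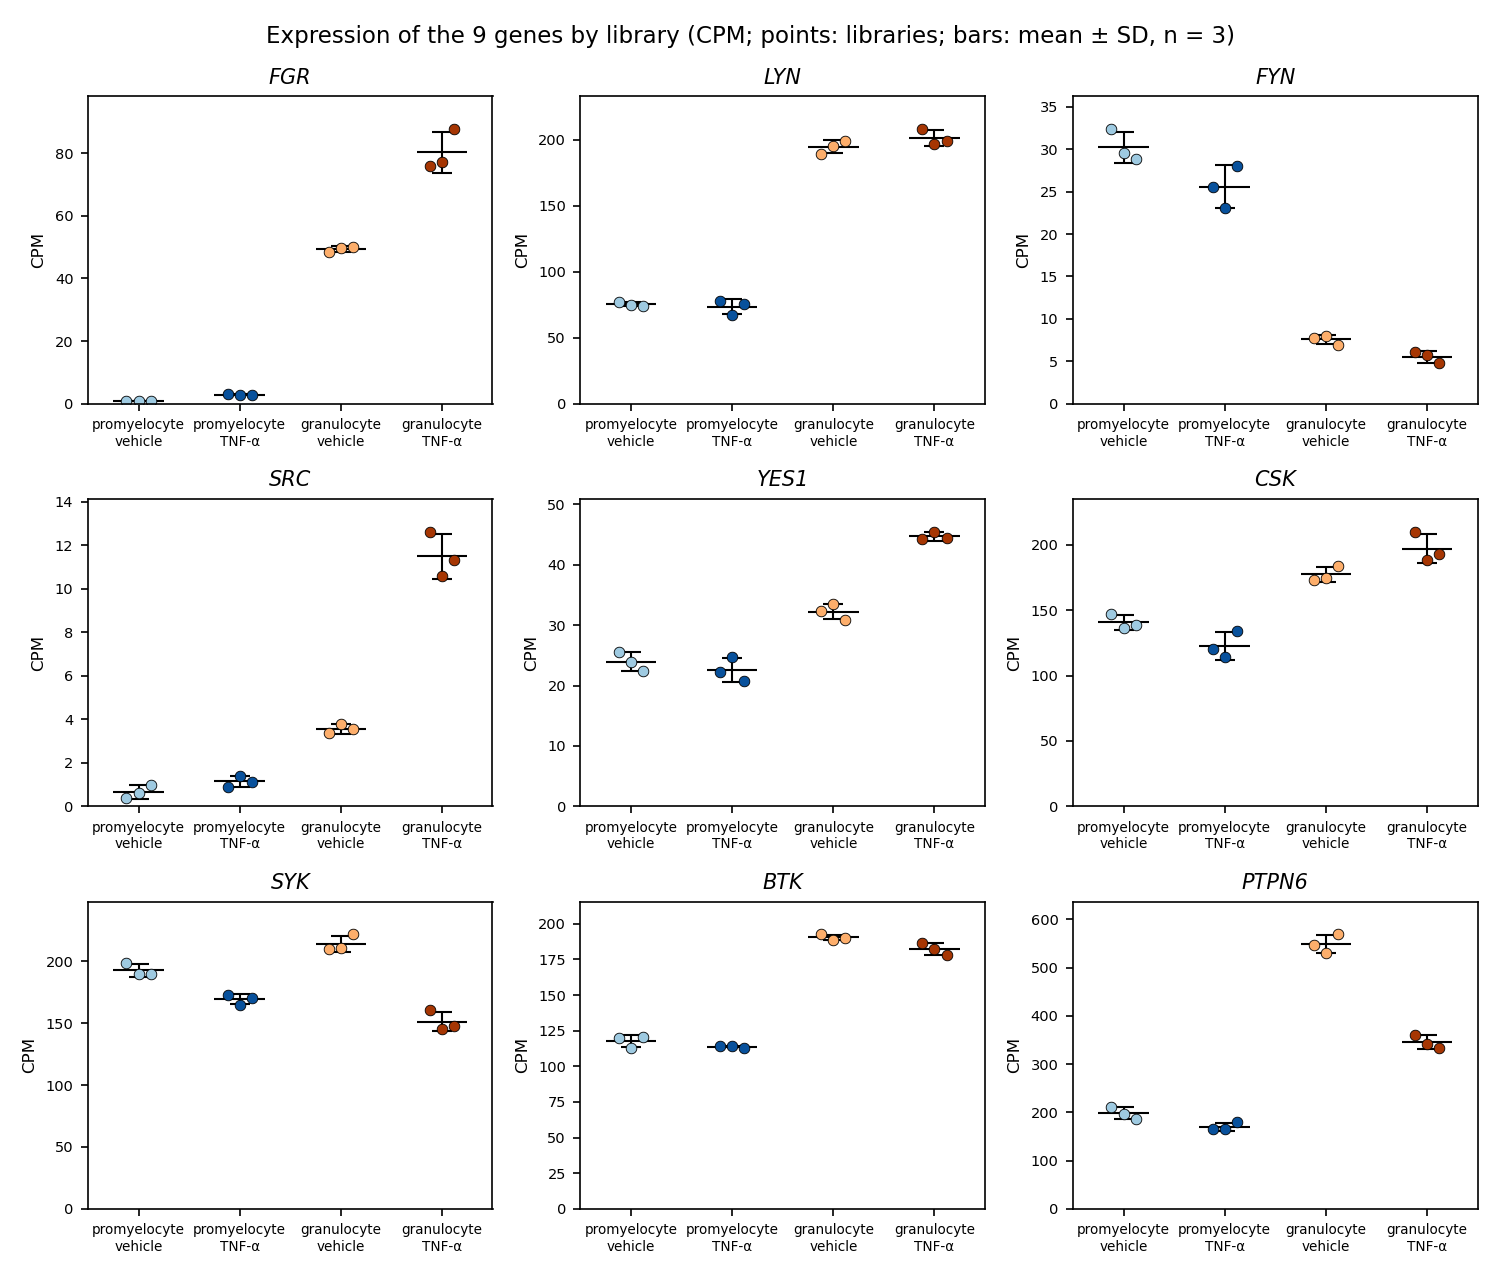
CPM of each of the 9 genes in all 12 libraries, 1 panel per gene with its own linear axis from 0, with points for libraries and bars for mean ± SD (n = 3). FGR and SRC are near the bottom of their axes in promyelocytes, FYN is the only gene whose granulocyte libraries lie below its promyelocyte libraries in both treatments, and PTPN6 in granulocytes with TNF-α lies between the vehicle levels of the 2 cell types.

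The responses differed between the cell types for 5 of the 9 genes, FGR, YES1, CSK, SYK and PTPN6, where 24.0% of all 18124 genes tested in the 12-library fit were called. With GC and length trends removed the count was 4, without CSK, and it was 6, with SRC, in the pair of fits without 1 promyelocyte library given above. For FGR and PTPN6 the same direction was called in both cell types with different size. YES1, CSK and SYK were called in granulocytes only, and for these the interaction itself is the test of the difference.

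Between vehicle granulocytes and vehicle promyelocytes, 8 of the 9 genes were higher in granulocytes and 1, FYN, was lower, where 72.0% of all genes were called, 35.7% as higher and 36.3% as lower. FGR was 52.7-fold higher (log2 difference 5.72 ± 0.11 SE, edgeR adjusted p = 2.79e-25), and 98.77% of the tested genes had a lower difference. SRC was 5.39-fold, PTPN6 2.76-fold, LYN 2.58-fold and BTK 1.62-fold higher, and FYN was 3.98-fold lower (log2 difference -1.99 ± 0.09, adjusted p = 1.63e-16). YES1, CSK and SYK differed least, by log2 differences of 0.43, 0.33 and 0.15, and the SYK call (adjusted p = 0.0101) was lost without the third vehicle granulocyte library (adjusted p = 0.0546). These differences in level cannot be told apart from the separate experiments and their cell densities.

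Levels of different genes were compared per length, as FPKM (the same CPM per kilobase of exon). In vehicle promyelocytes the order was PTPN6 (39.7 ± 2.55), SYK (37.0 ± 1.04), CSK (30.8 ± 1.24), BTK (25.7 ± 0.934), LYN (12.2 ± 0.259), YES1 (4.69 ± 0.312), FYN (4.08 ± 0.249), FGR (0.268 ± 0.0227) and SRC (0.102 ± 0.0499 FPKM, mean ± SD, n = 3). The order was the same with TNF-α. PTPN6 and SYK overlapped in both promyelocyte groups, and CSK and BTK overlapped with TNF-α. In vehicle granulocytes it was PTPN6 (110 ± 3.80), BTK (41.6 ± 0.406), SYK (41.1 ± 1.25), CSK (38.8 ± 1.28), LYN (31.4 ± 0.799), FGR (14.2 ± 0.255), YES1 (6.32 ± 0.250), FYN (1.02 ± 0.0743) and SRC (0.550 ± 0.0329 FPKM), and BTK and SYK overlapped. With TNF-α, SYK in granulocytes moved below CSK and LYN to 29.0 ± 1.52 FPKM, and SRC at 1.78 ± 0.160 FPKM lay above FYN at 0.744 ± 0.0879 FPKM.

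The make-up of the 5 Src family kinases among the 9 genes, not of the whole family, was read from the same per-length levels. LCK, BLK and FRK of the same family did not pass the filter on low counts in either cell type. Summed over the 5 Src family kinases, the per-length level was 21.3 ± 0.760 FPKM in vehicle promyelocytes, 20.8 ± 0.843 with TNF-α, 53.6 ± 1.00 in vehicle granulocytes and 66.9 ± 1.59 with TNF-α (mean ± SD, n = 3). LYN made up 57.2%, 57.1%, 58.7% and 48.6% of the sum in these groups, so it was the most abundant of the 5 in each. FGR went from 1.26% to 4.03% with TNF-α in promyelocytes and from 26.6% to 34.5% in granulocytes. FYN made up 19.1% and 16.6% in promyelocytes and 1.91% and 1.11% in granulocytes.

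The regulators were also set against the same sum. The ratio of PTPN6 to the 5 kinases was 1.86 ± 0.0537 in vehicle promyelocytes and 1.64 ± 0.0734 with TNF-α, and 2.05 ± 0.0775 in vehicle granulocytes and 1.03 ± 0.0540 with TNF-α (FPKM over FPKM, mean ± SD, n = 3). For CSK it was 1.44 and 1.29 in promyelocytes and 0.724 and 0.645 in granulocytes. SYK stood at 1.74 and 1.56 in promyelocytes and at 0.767 and 0.434 in granulocytes. These sums and ratios are RNA levels chosen after the values were seen and are given without a test.

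**Figure D3:**
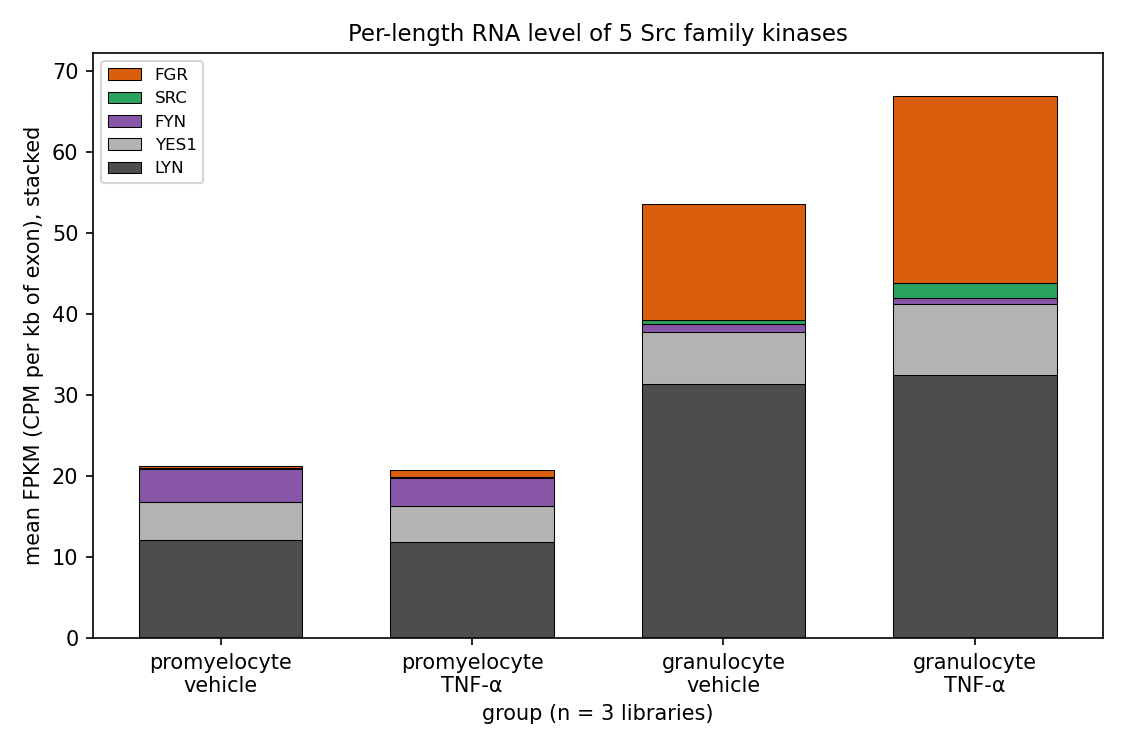
Stacked mean FPKM (CPM per kilobase of exon, 3 libraries) of the 5 Src family kinases in the 4 groups, on a linear axis from 0. LYN is the largest part of every bar, FGR is a visible part of the granulocyte bars at 26.6% and 34.5%, and the bars reach 21.3, 20.8, 53.6 and 66.9 FPKM.

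The pathway around the 9 genes was described with a list of 74 further genes, chosen with earlier results of these data known. Its shares beside those of all genes are description and were not tested. In promyelocytes 58 were tested, of which 10 rose and 19 fell (50.0% called, against 14.8% of all genes), with a median log2 fold change of -0.11. In granulocytes 62 were tested, of which 20 rose and 28 fell (77.42% called, against 49.2% of all genes), with a median of -0.13.

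Among the inhibitory receptors with ITIMs, motifs that can recruit PTPN6, 1 of 10 tested rose and 5 fell in promyelocytes (median log2 fold change -0.37). In granulocytes 3 of 14 rose and 10 fell (median -0.54). Of all genes tested, 8.15% rose and 6.65% fell in promyelocytes, and 24.4% rose and 24.8% fell in granulocytes. The 5 monocyte and macrophage markers summed to between 3.86 and 4.73 CPM with vehicle and between 2.90 and 3.88 CPM with TNF-α in promyelocytes, beside the lower values with TNF-α in granulocytes given above, and their part in the changes of these receptors was not tested. CD300A, an inhibitory receptor for membrane lipids, fell in both, with log2 fold changes of -1.18 and -1.19 (edgeR adjusted p = 0.000321 and 3.41e-20). CEACAM1, an adhesion receptor, fell in granulocytes from 60.3 ± 3.29 to 24.4 ± 1.37 CPM (-1.32, adjusted p = 8.26e-20), and SIGLEC9, which binds sialic acid, from 6.27 ± 0.687 to 3.10 ± 0.275 CPM (-1.03, adjusted p = 3.41e-07). Neither CEACAM1 nor SIGLEC9 passed the filter on low counts in promyelocytes, so their response there was not tested. FCGR2B, the inhibitory Fc receptor, fell in granulocytes by 1.06 on the log2 scale (adjusted p = 1.11e-05), with the limit that near-identical gene copies can split its reads and those of FCGR2A. Against this direction SIRPA, the receptor for CD47, rose from 100 ± 7.73 to 203 ± 7.70 CPM in promyelocytes and from 585 ± 36.8 to 883 ± 58.4 CPM in granulocytes (1.04 and 0.58, adjusted p = 1.37e-10 and 2.12e-11). PILRA rose in granulocytes (1.42, adjusted p = 3.38e-09), and it shares exon bases with PILRB on the same strand.

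Of the 10 phosphatases listed as acting on Src family kinases, 5 rose and none fell in promyelocytes, and 5 rose and 3 fell in granulocytes. The list does not separate phosphatases that activate the kinases from those that inhibit them, so these counts give no direction for kinase activity. Of all genes tested, 8.15% rose and 6.65% fell in promyelocytes, and 24.4% rose and 24.8% fell in granulocytes. PTPRJ (CD148), a receptor phosphatase of hematopoietic cells, rose in both, with log2 fold changes of 0.77 and 0.52 (edgeR adjusted p = 1.85e-08 and 3.96e-11). PTPN12, a cytoplasmic phosphatase of adhesion proteins, rose in both, with log2 fold changes of 0.60 and 1.38 (adjusted p = 5.07e-06 and 6.39e-24). PTPRE rose in granulocytes from 111 ± 5.28 to 278 ± 18.4 CPM (1.31, adjusted p = 3.94e-22), while in promyelocytes its log2 fold change was 0.02 (adjusted p = 0.869).

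Among the 3 tested genes that bind or resemble CSK, PAG1, which anchors CSK at the membrane, rose in both cell types (log2 fold change 0.35 and 0.90, edgeR adjusted p = 0.00131 and 6.06e-18). LIME1, another CSK-binding adaptor, had log2 fold changes of 0.45 and 0.19 (adjusted p = 0.271 and 0.375). CBLB, a ubiquitin ligase that marks activated kinases for degradation, fell in both, by 0.31 and 0.63 on the log2 scale (adjusted p = 0.0235 and 7.36e-08). The CBLB call in promyelocytes was lost without the third vehicle library or the second or the third TNF-α library (adjusted p = 0.1246, 0.0741 and 0.0602).

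Of the 6 ITAM adaptors and receptors, none rose and 1 fell in promyelocytes, and 2 rose and 1 fell in granulocytes. That is 16.67% called in promyelocytes against 14.8% of all genes and 50.0% called in granulocytes against 49.2%, near the background in both. The activating Fc receptor FCGR2A fell in granulocytes (log2 fold change -0.70, edgeR adjusted p = 8.76e-10) and CD79B, a chain of the B cell receptor, fell in promyelocytes (-0.52, adjusted p = 0.00673). The CD79B call was lost without the second TNF-α library (adjusted p = 0.0543).

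TXK, a Tec family kinase, fell in granulocytes (log2 fold change -0.53, edgeR adjusted p = 0.000534) and had -0.34 in promyelocytes (adjusted p = 0.195). Among the 24 tested adaptors and effectors, 3 rose and 11 fell in promyelocytes and 7 rose and 11 fell in granulocytes, against 8.15% and 6.65% of all genes in promyelocytes and 24.4% and 24.8% in granulocytes. DAPP1, an adaptor that binds phosphoinositides and is phosphorylated by Src family kinases, rose from 14.1 ± 0.977 to 89.6 ± 1.35 CPM in promyelocytes and from 104 ± 1.15 to 243 ± 7.09 CPM in granulocytes (log2 fold change 2.69 and 1.22, adjusted p = 2.16e-16 and 2.70e-22). PIK3AP1, which couples receptors to PI3-kinase, rose in both (0.58 and 1.04, adjusted p = 2.51e-07 and 3.19e-20). GAB2, a docking protein of the same pathway, fell in both (-0.53 and -1.18, adjusted p = 0.000233 and 7.69e-15).

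**Figure D4:**
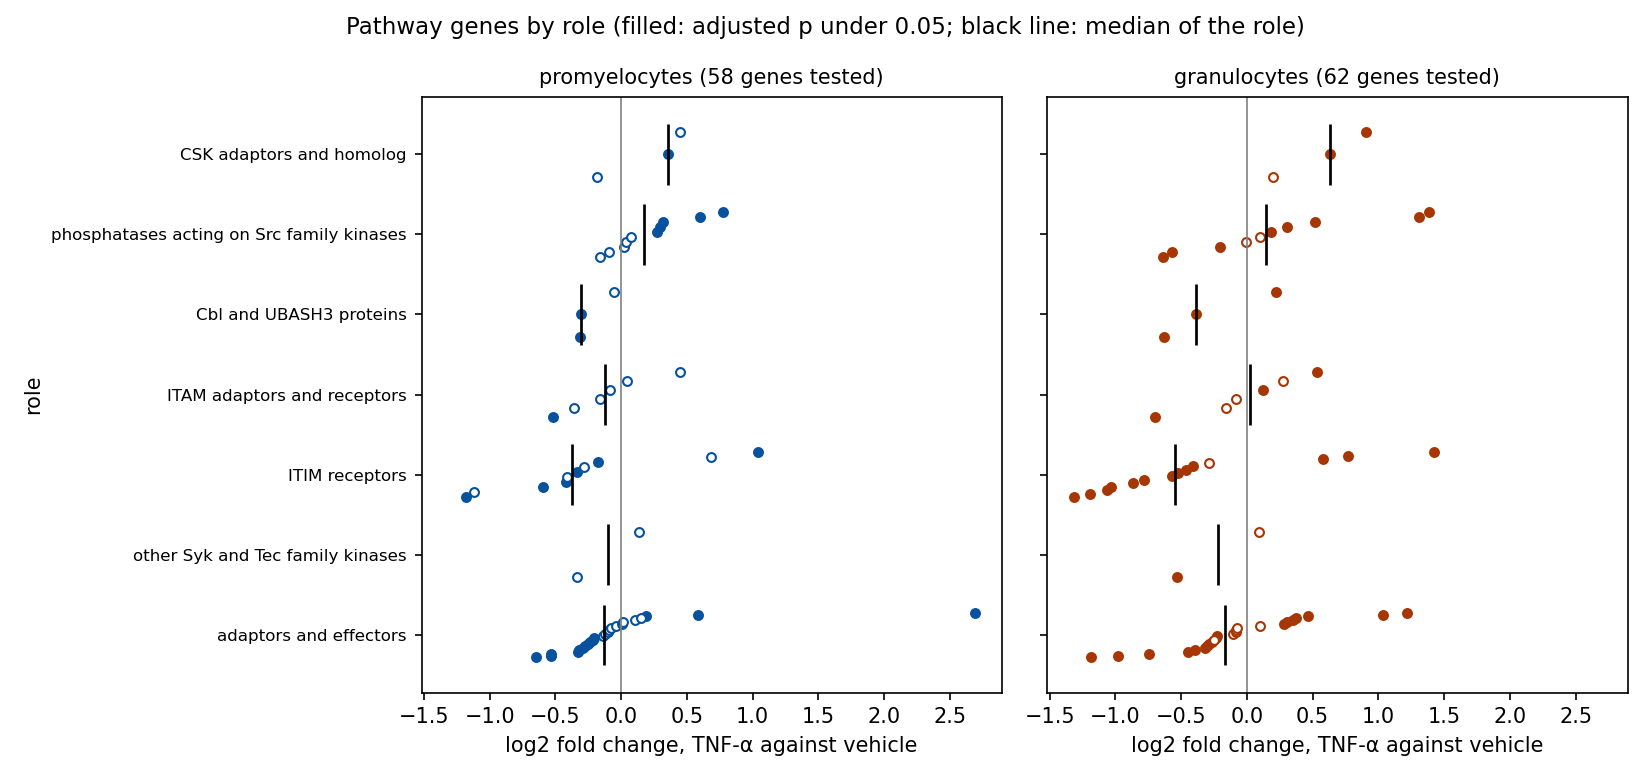
Log2 fold change with TNF-α of the tested pathway genes in 7 roles, in promyelocytes (left, 58 genes) and granulocytes (right, 62 genes), with filled points for an adjusted p under 0.05 and a black line at the median of each role. The ITIM receptors have medians of -0.37 and -0.54, and the farthest point is DAPP1 in promyelocytes at 2.69.

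Over the 12 libraries and 11717 genes compared, the genes whose log2 CPM followed each kinase most closely were SLC7A11 and KCNH4 for FGR (Pearson r = 0.9992 and 0.9987), CD4 and KIAA0513 for LYN (0.999 and 0.9987), and DDX54 and TTLL12 for FYN (0.9969 and 0.9967). For SRC they were SH3TC1 and ZFC3H1 (0.9919 and 0.9875), and for YES1 they were PIR and ACOT9 (0.9866 and 0.9834). The 12 points share the division into 2 cell types, and its part in the coefficients was not tested.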

How the data were processed

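RNA-seq of 12 HL-60/S4 libraries was analysed. The authors deposited raw counts, the number of read pairs per gene, without normalization. Per the file headers and the submitters' processing notes, reads were aligned with STAR 2.5.3a and counted with featureCounts 1.5.2 on GENCODE 27, using the reverse strand. Gene symbols matched 57532 identifiers, and 756 had none.

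Libraries were grouped by their titles. The 6 libraries of a cell type were fitted together in edgeR 4.0.16 (R 4.3.3), with TMM normalization, filterByExpr (minimum count 10, minimum total 15), the quasi-likelihood test and Benjamini-Hochberg adjustment over all genes, with a threshold of 0.05. Differences between responses and between vehicle groups came from 1 fit of the 12 libraries. A standard error is the log2 fold change divided by the root of edgeR's F. CPM used TMM library sizes of the 12 libraries, which differed from the scale within a cell type by at most 2.20%, and FPKM is that CPM per kilobase of deposited exon length. The floor of 3 counts covers counting error only, and 3 libraries per group limit the precision.

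The 9 genes and the lists were chosen with earlier results of these data known. Named genes were the 9, the pathway genes past the threshold with a log2 change of at least 1 in size or with the largest change of their role, the 2 genes most correlated with each Src family kinase (mean log2 CPM of at least 1), and TNF. The fits were also run on simulated counts, whose outcome is not given here and is not used as support. The alternatives were DESeq2 1.42.0, its size factors, no filter, all 12 libraries in 1 fit, a block for the replicate number, a threshold of 0.01, a fold minimum, removal of GC and length trends, and leaving out each library. Protein sequences were not used here, and 1 further gene of the pathway is not reported here.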

Additional observations from a re-analysis of the deposited data

Results flagged for a closer look

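The responses of 5 genes to TNF-α differed between granulocytes and promyelocytes by the interaction in edgeR (granulocyte minus promyelocyte response, log2, 3 libraries per group). The difference was -0.94 for FGR (adjusted p = 0.000186), whose TNF-α libraries lay above the vehicle libraries in both cell types. It was -0.45 for PTPN6 (adjusted p = 0.000119) and -0.32 for SYK (adjusted p = 0.00201), whose TNF-α libraries lay below the vehicle libraries in both. It was 0.55 for YES1 (adjusted p = 0.000168), whose groups overlapped in promyelocytes. It was 0.35 for CSK (adjusted p = 0.00306), whose TNF-α libraries lay below the vehicle libraries in promyelocytes and above them in granulocytes, but with GC and length trends removed the CSK difference was 0.11 (adjusted p = 0.303) and its granulocyte change -0.0067. The cell types were separate experiments at different cell densities, and the part of that in these differences cannot be told apart. Groups of 3 libraries were not tested for single outlying libraries.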

How the results depend on the processing

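Of the 9 genes, 2 were called in promyelocytes. The count was 1 with the replicate block, at a threshold of 0.01, at a log2 change of at least 1, and after removal of GC and length trends, 5 with all 12 libraries in 1 fit, 3 with DESeq2, and 1 to 4 when 1 library was left out. Among the named genes, the block lost the calls of PTPN6 (adjusted p = 0.106) and CBLB (0.0586) in promyelocytes and CSK (0.0619) in granulocytes, and it took the called pathway genes from 29 to 22 and from 48 to 47, and all promyelocyte calls from 2405 to 1833. The replicate numbers are not stated to pair the flasks. The residuals of same-numbered vehicle and TNF-α libraries correlated between -0.1051 and -0.0059, and those of differently numbered ones between -0.0533 and 0.0972. Such correlations cannot show whether flasks were handled in pairs. Over all genes, the promyelocyte count of 2405 was 1438 at the threshold of 0.01 and 1598 without the second vehicle library, the lowest when 1 library was left out, with a highest count of 2475 there. Of the 9 genes, 5 had differing responses, 4 with GC and length trends removed and 5 to 6 when 1 library was left out. The count of 4351 differing responses was 2843 at 0.01.

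With a log2 change of at least 1, the counts were 402 of all genes and 3 of the pathway genes in promyelocytes, 1 of the 9, 10 of the pathway genes and 1746 of all genes in granulocytes, 0 of the 9 and 892 of all genes for the difference between responses, and 5 of the 9 and 6339 of all genes between the vehicle groups. These smaller counts follow from the stricter rule.

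In granulocytes FGR, SRC, YES1, FYN, SYK and PTPN6 kept their direction and call in every fit run. Across the values of single genes under other settings, 389 kept direction and call, 5 lost the call, 4 gained it and 3 changed sign, and with 1 library left out the numbers were 505, 12, 5 and 6. The sign changes were as follows. Removal of GC and length trends gave -0.0067 for CSK in granulocytes and 0.0363 for the BTK interaction, and the fit of 12 libraries gave -0.0043 for PTPRE in promyelocytes. Leaving out 1 library gave -0.0534 to 0.0006 for BTK, -0.0515 to 0.053 for LYN and -0.1243 to 0.0063 for YES1 in promyelocytes, -0.0306 to 0.0153 for the BTK interaction, and -0.0258 to 0.5703 for CD79B in granulocytes. The causes were not tested. SRC in promyelocytes rests on 11 to 39 read pairs per library, and its range without 1 library was 0.50 to 1.26.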
